A study of Mus musculus with 4 samples.

Results

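The immediate early response genes examined here are Fos, Fosb, Jun, Junb, Egr1, Atf3, Ier2, Dusp1 and Zfp36, and they were taken by the gene name that the array files give to each probe. They make up 9 of 27597 named genes, with 12 of 41174 probes and 30 of 43379 spots. The samples were a maxilla and a mandible as jaw bones, set against an ilium and a femur as bones of the trunk and limbs. All 4 came from male C57BL/6 mice aged 35 days with no treatment named in the labels, and total RNA of each bone was labelled with cyanine 3 for 1 array. The number of mice behind each array is not stated. No value below has a replicate of its own bone.

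Immediate early genes are switched on within minutes of a growth factor, a cytokine, mechanical load or a stress, from factors already present in the cell, and most of their mRNAs are short-lived. Fos and Jun proteins pair through leucine zippers to form AP-1, which binds DNA and drives a second wave of genes. In bone, Fos is required for osteoclasts to form, and forced expression of splice forms of Fosb raises bone mass in mice. Dusp1 and Zfp36 act in the other direction, since Dusp1 removes the phosphates that activate MAP kinases and Zfp36 sends AU-rich mRNAs to decay.

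The promoters of the genes on which the comparisons below turn are shown first, as the 250 bases before the annotated start in RefSeq on build GRCm38.p6. The sequences run 5′ to 3′ on the gene's strand, and capitals mark matches to searched motifs. Of the 9 genes, 7 had a promoter sequence, and Egr1 and Ier2 had none. Jun is the gene that stood higher in both jaw bones. Fos and Junb are the pair whose levels ran most alike over the 4 bones, and Fosb and Zfp36 both stood lower in the jaw bones.
Jun, chr4:95052223-95052472, minus strand: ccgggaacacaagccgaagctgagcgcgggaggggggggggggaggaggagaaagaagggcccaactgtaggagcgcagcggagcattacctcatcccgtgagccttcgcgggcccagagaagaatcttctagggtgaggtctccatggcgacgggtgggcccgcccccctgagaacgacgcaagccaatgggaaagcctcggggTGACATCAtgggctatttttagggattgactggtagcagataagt
Fos, chr12:85473640-85473889, plus strand: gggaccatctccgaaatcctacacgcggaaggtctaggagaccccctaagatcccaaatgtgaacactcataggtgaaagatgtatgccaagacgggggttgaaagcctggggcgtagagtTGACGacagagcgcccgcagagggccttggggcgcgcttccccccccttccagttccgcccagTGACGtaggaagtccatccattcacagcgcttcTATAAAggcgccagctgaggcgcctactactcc
Junb, chr8:84978749-84978998, minus strand: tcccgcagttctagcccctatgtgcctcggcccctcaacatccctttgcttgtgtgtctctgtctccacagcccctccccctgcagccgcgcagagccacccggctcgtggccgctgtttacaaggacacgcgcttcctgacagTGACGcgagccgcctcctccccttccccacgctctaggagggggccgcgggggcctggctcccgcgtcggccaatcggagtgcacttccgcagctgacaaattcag
Fosb, chr7:19310046-19310295, minus strand: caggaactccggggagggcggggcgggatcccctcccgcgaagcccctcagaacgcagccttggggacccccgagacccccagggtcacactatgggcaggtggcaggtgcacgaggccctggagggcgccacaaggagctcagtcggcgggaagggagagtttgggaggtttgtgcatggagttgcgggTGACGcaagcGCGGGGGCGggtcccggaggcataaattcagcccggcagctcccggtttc
Zfp36, chr7:28379229-28379478, minus strand: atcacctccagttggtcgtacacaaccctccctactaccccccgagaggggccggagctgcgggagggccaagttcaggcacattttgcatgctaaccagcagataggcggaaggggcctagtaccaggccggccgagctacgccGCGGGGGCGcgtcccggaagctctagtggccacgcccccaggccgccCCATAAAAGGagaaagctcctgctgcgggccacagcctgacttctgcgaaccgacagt

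The motifs searched, on both strands, were TGACGTCA (the full cAMP response element) and its core TGACG, which lies inside it, the AP-1 site TGACTCA, the variant TGACATCA, TATAAA, the EGR sites GCGGGGGCG and GCGTGGGCG, and the CArG box bound by serum response factor. The core TGACG was in 5 of the 7 promoters (Fos, Fosb, Junb, Atf3 and Dusp1) and in 17.8% of 32851 promoter windows of the same length. In Fos it lay 66 to 62 bases before the start, and again at 129 to 125. Dusp1 held the full TGACGTCA, 143 to 136 bases before its start, a sequence in 1.55% of windows. Jun held no TGACG but held TGACATCA 45 to 38 bases before the start, as did 2.93% of windows. Zfp36 had a CArG box 58 to 49 bases before its start (1.47% of windows), and GCGGGGGCG was in Zfp36 and Fosb (2.57% of windows). TGACTCA was in 0 of the 7, against 4.46% of windows. A match is a description of the letters only. Sites outside the 250 bases, and those of Egr1 and Ier2, were not searched.

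Of the spots that were not controls, 72.8% to 75.5% were well above background on the 4 arrays, and 0 were saturated. The 75th percentile of the signal was 809 on the maxilla array and 1142 on the mandible array, against 1142 on the ilium array and 1208 on the femur array. Levels are given as log2 of the processed signal relative to that percentile of the same array. Outside the marker sums, a level of 1 gene is never set against that of another. Those sums add unlogged levels of different markers, so the brightest markers weigh most in them. All 12 probes were well above background in all 4 bones. Osteoblast and osteocyte markers were well above background in each bone (10 of 10), and their summed level was 415 in the maxilla and 437 in the mandible, against 331 in the ilium and 278 in the femur. The jaw samples held tooth markers (summed level 96.2 in the maxilla and 263 in the mandible, against 0.383 in the ilium and 0.191 in the femur, where Enam, Mmp20, Odam and Amtn were not well above background) and epithelial markers (67.9 and 109 in the maxilla and mandible, against 4.29 and 4.43 in the ilium and femur). Nasal and salivary markers summed to 620 in the maxilla and 0.562 in the mandible, against 0.478 for the ilium and 0.0913 for the femur. All 8 erythroid, 10 neutrophil, 8 B lymphocyte and 8 muscle markers were well above background in every bone.

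Jun encodes the main DNA-binding partner of Fos proteins in AP-1. Its probe (chromosome 4, 94541191 to 94541250, mm8, minus strand) was printed in 10 spots, of which 1 was outlying in the maxilla, 2 in the mandible and 1 in the femur. The remaining spots had a mean signal of 2297 in the maxilla and 1812 in the mandible, against 886 in the ilium and 892 in the femur. On the scaled log2 axis Jun stood at 1.5 in the maxilla and 0.67 in the mandible, against -0.37 in the ilium and -0.44 in the femur. Both jaw bones were above both other bones, by at least 1.03. The SD between spots of the probe was 0.0406 to 0.0944. The ilium and femur differed by 0.07, less than the error of a difference, 0.20. That error was worked out from the error the extraction program gives each signal, about 10%, and was not reduced for the number of spots. It was near 0.20 for each of the 9 genes.

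Fos, the founding AP-1 subunit, followed another order. Its probe (chromosome 12, 86366053 to 86366112, plus strand) also had 10 spots, with mean signals of 357 in the maxilla and 213 in the mandible, against 374 in the ilium and 348 in the femur. The mandible spots ran from 203 to 224, and the lowest spot of the other bones was 319, in the femur. Scaled levels of Fos were -1.18 in the maxilla and -2.42 in the mandible, against -1.61 in the ilium and -1.79 in the femur. The mandible was thus the low bone, before and after scaling. On the scaled axis the jaw bones lay on either side of the trunk and limb bones. Before scaling, the maxilla signal lay between those of the ilium and femur.

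**Figure D1:**
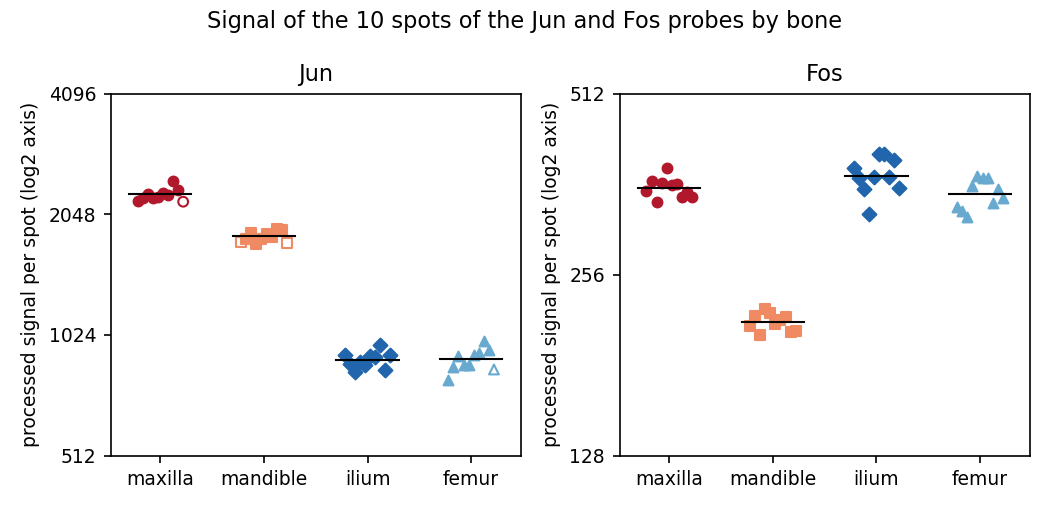
Processed signal of each of the 10 spots of the Jun probe (left) and the Fos probe (right) on the arrays of the maxilla, mandible, ilium and femur, on log2 axes before scaling between arrays. Filled points were used, open points were outlying spots, and lines are means of the spots used. Jun is higher on both jaw arrays (means of 2297 and 1812, against 886 and 892), and Fos is low in the mandible alone (213).

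Junb, an AP-1 subunit that can oppose Jun, had levels of 3.60 in the maxilla and 2.54 in the mandible, against 3.28 in the ilium and 3.14 in the femur (chromosome 8, 87867087 to 87867146, minus strand). A second, overlapping Junb probe gave 3.14, 2.11, 2.92 and 2.86 in the same bones, so both put the mandible lowest. Atf3, a leucine zipper factor induced by stress, had levels of -0.38 in the maxilla and -1.91 in the mandible, against -0.78 in the ilium and -0.68 in the femur (chromosome 1, 192871283 to 192871342, minus strand). The mandible was again low, 1.13 below the ilium, while the maxilla, femur and ilium followed each other within 2 errors of a difference.

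Fosb, the closest relative of Fos, was lower in the jaw bones. Its levels were -3.96 in the maxilla and -3.98 in the mandible, against -3.23 in the ilium and -3.04 in the femur (chromosome 7, 18461650 to 18461709, minus strand). The 2 jaw bones differed by 0.03 and the groups did not overlap. Its signals were 4.17 and 5.33 times the lowest signal well above background in the maxilla and mandible, and 9.43 and 11.3 times it in the ilium and femur.

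Egr1, a zinc-finger factor induced through MAP kinase signalling, was the gene that set the femur apart. It stood at 1.30 in the maxilla and 0.82 in the mandible, against 0.87 in the ilium and -0.19 in the femur. Before scaling, its signals were 1996, 2015 and 2087 in the maxilla, mandible and ilium, and 1057 in the femur. The mandible and ilium differed by 0.05, within the error of a difference, and the femur lay 1.01 below the mandible.

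Ier2, which encodes a small nuclear protein, had 2 probes that disagreed. The brighter probe (chromosome 8, 87549656 to 87549690, minus strand) gave 2.27 in the maxilla and 1.44 in the mandible, against 2.44 in the ilium and 2.43 in the femur. There the mandible was low and the other bones lay within 2 errors of their neighbours. The dimmer probe (87549829 to 87549887) gave -2.03 in the maxilla and -3.43 in the mandible, against -3.60 in the ilium and -3.83 in the femur, so it put the maxilla above the rest. The files give neither probe's exon, and which transcript each reads was not tested.

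Dusp1, the phosphatase that switches off MAP kinases, varied least. Its levels were 1.32 in the maxilla and 0.84 in the mandible, against 1.06 in the ilium and 1.34 in the femur (chromosome 17, 26233451 to 26233508, minus strand), a range of 0.51, and each bone differed from the next by less than 2 errors. Zfp36, which encodes tristetraprolin, stood at -0.13 in the maxilla and -0.50 in the mandible, against 0.62 in the ilium and 0.89 in the femur (chromosome 7, 28085873 to 28085932, minus strand). Both jaw bones lay below both others, by at least 0.76. A dimmer Zfp36 probe (28085681 to 28085740) gave -5.46 and -5.47 in the maxilla and mandible, against -4.43 and -4.11 in the ilium and femur, the same separation at signals of 1.48 and 1.90 times the lowest signal well above background in the jaw bones.

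**Figure D2:**
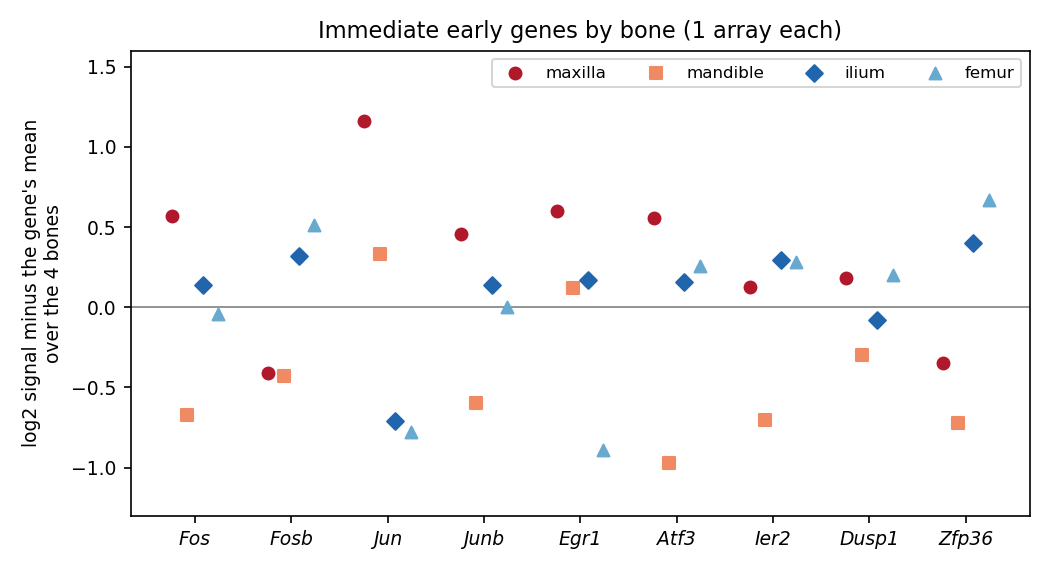
Log2 level of each gene in each bone minus the gene's own mean over the 4 bones, 1 array per bone, brightest probe of a gene. Jun is high in both jaw bones, Fosb and Zfp36 are low in both, Fos, Junb, Atf3 and Ier2 are low in the mandible, and Egr1 is low in the femur.

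The jaw bones were first compared with the trunk and limb bones, the contrast that the series title names. No immediate early gene passed the limma threshold (adjusted p under 0.05, Benjamini-Hochberg over 20616 genes): 0 of 9 were called higher and 0 lower, where 4.51% and 7.25% of all genes tested were called. At an unadjusted p under 0.05, 1 of 9 was higher (15.7% of all genes) and 2 were lower (18.7%), and limma with trend and robust settings also gave 0 calls. Error in this fit came from how far the 2 bones within each class lay apart, and variation among mice was not measured. Fewer cells of a type and less RNA per cell cannot be told apart in such samples.

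Jun had the highest difference, 2.80-fold or 1.49 ± 0.36 on the log2 scale (SE, 2 bones per class; limma adjusted p = 0.0791). With 1 bone left out, Jun differed by 1.07 without the maxilla (limma adjusted p = 0.0327), 1.91 without the mandible (adjusted p = 0.00992), 1.52 without the ilium (adjusted p = 0.338) and 1.45 without the femur (adjusted p = 0.458). In each of these fits a lone bone is assumed to vary like the other class. Limma called 14.4% of all genes higher and 15.5% lower without the maxilla, 19.6% and 20.2% without the mandible, and 0 without the ilium or without the femur (3550 and 2628 at an unadjusted p under 0.05). Zfp36 was 2.10-fold lower, -1.07 ± 0.25 (adjusted p = 0.0744), and Fosb 1.79-fold lower, -0.84 ± 0.20 (adjusted p = 0.0774). Egr1 differed by 0.72 ± 0.47 and Ier2 by -0.58 ± 0.36 (limma adjusted p = 0.347 and 0.327). Atf3 had a difference of -0.42 ± 0.59, Junb of -0.14 ± 0.43, Dusp1 of -0.12 ± 0.28 and Fos of -0.10 ± 0.49, with limma adjusted p from 0.654 to 0.903. For these 4 the SE was larger than the difference. Without the maxilla, Zfp36 (-1.25, limma adjusted p = 0.034), Atf3 (-1.18, adjusted p = 0.0284) and Ier2 (-1.0, adjusted p = 0.0355) were called lower, which makes 1 of 9 higher and 3 of 9 lower beside the shares of all genes given for that fit.

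The median difference of the 9 genes was -0.14, beside -0.03 over all genes tested, and the median absolute difference was 0.58, beside 0.63. Both jaw bones were above both trunk and limb bones for 1 of 9 (Jun), as for 31.9% of all genes, and below both for 3 of 9 (Fosb, Ier2 and Zfp36), as for 36.3%. For Ier2 the gap was 0.16, under the error of a difference, and its dimmer probe put both jaw bones above both others. Quantile normalization and the mean over probes left Ier2 out, while median centring and the series table added Dusp1. With a gap of at least 1 on the log2 scale, 1 of 9 was above (Jun, where 9.34% of all genes were) and 0 below (9.82%). Set beside the shares of all genes, these counts are not a result about the 9 genes.

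With every probe taken alone and p-values adjusted over 31116 probes, 0 of 12 were called higher (4.92% of all probes) and 1 lower (7.89%). The call was the dimmer Zfp36 probe, at -1.19 ± 0.22 (limma adjusted p = 0.0491). At an unadjusted p under 0.05, 1 of 12 was higher (15.6% of all probes) and 3 were lower (19.5%), those of Jun, Fosb and both of Zfp36. The brighter Zfp36 probe had -1.07 ± 0.25 (adjusted p = 0.0695). The brighter and dimmer Ier2 probes had differences of opposite sign, -0.58 ± 0.35 and 0.98 ± 0.54, and neither was called. The Junb probes gave -0.14 and -0.27.

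**Figure D3:**
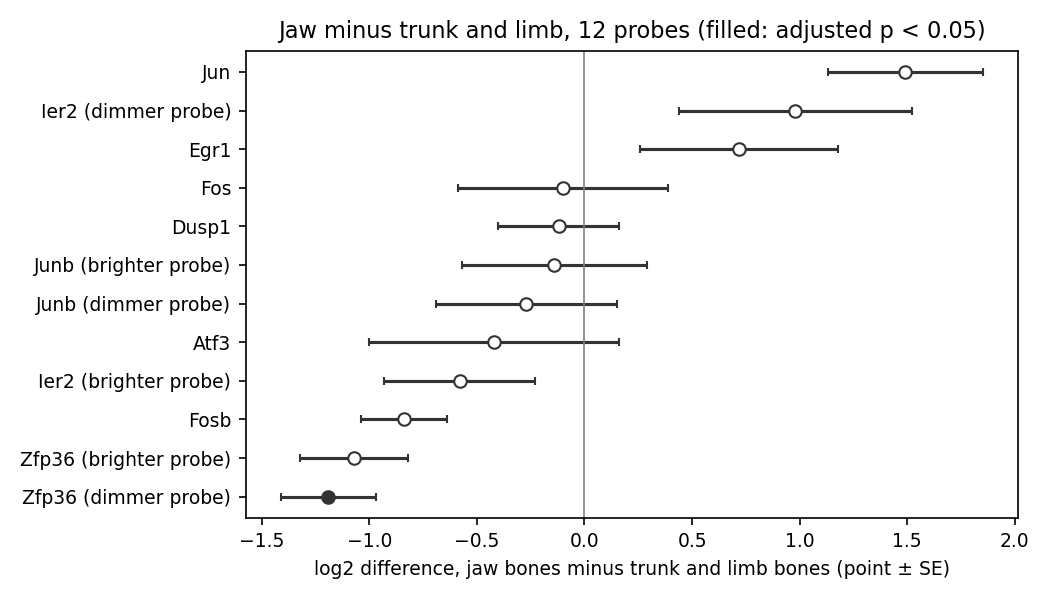
Difference in log2 level between jaw bones (maxilla and mandible) and trunk and limb bones (ilium and femur) for each of the 12 probes, with the SE of the limma fit over all probes. Points right of 0 are higher in the jaw, the filled point is the 1 probe past the threshold, and Ier2 has probes on both sides of 0.

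The maxilla was then set against the mandible, 1 array each and with no test. All 9 genes stood higher in the maxilla, where 45.5% of all genes tested did, with a median difference of 0.83, beside -0.07 over all genes. Of the related lists described below, 20 of 36 other immediate early genes stood higher in the maxilla, with a median of 0.06. So did 5 of 14 AP-1 partners and 3 of 6 EGR and NR4A family genes. Medians of the related lists ran from -0.23 (AP-1 partners) to 0.30 (Zfp36 relatives and AU-rich genes). Atf3 was 2.90-fold higher in the maxilla (difference 1.54), Fos 2.36-fold (1.24) and Junb 2.08-fold (1.06), so 3 of 9 passed 2-fold upwards, beside 13.5% of all genes, and 0 downwards, beside 8.32%. Jun (0.84) and Ier2 (0.83) followed, then Dusp1 and Egr1 (0.48 each), Zfp36 (0.36) and Fosb (0.03). The Zfp36 and Fosb differences were under 2 errors of a difference. Before scaling, the maxilla and mandible signals were 2023 and 2042 for Dusp1, and 1996 and 2015 for Egr1. They were 738 and 810 for Zfp36, and 52.0 and 72.2 for Fosb. The higher maxilla level of these genes therefore rests on the scaling between arrays, while the other members were also higher in the maxilla before scaling. Centring arrays on their median instead of the 75th percentile moved the median of all genes from -0.07 to -0.33. It left 8 of 9 genes higher in the maxilla, with Fosb at -0.23, and left 1 gene, Atf3, past 2-fold. Quantile normalization and the series table also left 8 of 9 higher in the maxilla.

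**Figure D4:**
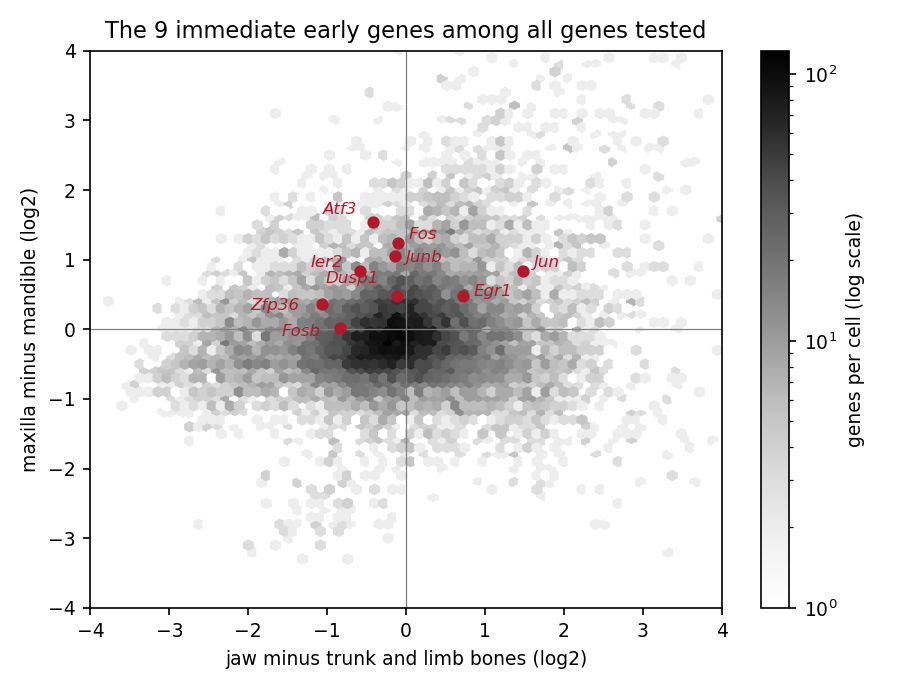
Difference between jaw and trunk and limb bones (x axis, log2) against the difference between maxilla and mandible (y axis, log2) for all genes tested, as shaded counts within 4 units of 0, with the 9 immediate early genes in red. All 9 lie above 0 on the y axis, and Jun lies farthest right at 1.49.

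The mandible was the lowest of the 4 bones for 7 of 9 genes, all but Jun and Egr1, and for 24.7% of all genes tested. In the related lists described below, it was lowest for 6 of 9 NF-kB response genes and 5 of 10 integrated stress response genes. It was also lowest for 6 of 13 genes of the Zfp36 and AU-rich list, but only for 11 of 36 other immediate early genes. Each remaining related list had 1 to 3 such genes. For Fosb (0.03), Dusp1 (0.22) and Zfp36 (0.36) the step to the next bone was under 2 errors. Median centring, quantile normalization and the series table left 6 of 9, without Fosb, beside 19.2%, 20.6% and 18.5% of all genes. For Fos, Junb, Atf3 and Ier2, 4 of 9, the mandible lay at least 0.5 below each other bone, as for 7.44% of all genes. These counts were chosen after the values were seen and have no test. Under median centring the same 4 genes met the second rule, beside 6.50% of all genes, while quantile normalization left 3 of them, without Junb. The mean over probes also left 3, without Ier2, beside 7.53% of all genes. The dimmer Ier2 probe put the mandible (-3.43) above the ilium (-3.60) and femur (-3.83). Summed markers of some blood cells were also lowest in the mandible. Neutrophil markers summed to 565 in the maxilla and 416 in the mandible, against 861 in the ilium and 863 in the femur. Only 2 of 10 were lowest in the mandible, Ltf (7.30 in the maxilla, 5.26 in the mandible) and S100a9 (8.15 and 7.75). Most neutrophil markers went the other way, with 2 of 10 higher in the maxilla than the mandible and a median difference of -0.64. T lymphocyte markers summed to 1.12 in the maxilla and 0.627 in the mandible, against 2.66 in the ilium and 3.54 in the femur, with 6 of 7 lowest in the mandible. Their part in the low mandible levels was not tested. Muscle markers went another way, at 242 in the maxilla and 917 in the mandible, against 999 in the ilium and 988 in the femur.

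The ilium and femur had 1 array each and no test. Egr1 was 2.09-fold higher in the ilium, a difference of 1.06, larger in size than that of 96.4% of all genes tested. It was 1 of 9 genes past 2-fold upwards (2.27% of all genes), with 0 downwards (1.57%). The other 8 genes differed by -0.29 to 0.18 between these bones, and the median absolute difference of the 9 was 0.18, beside 0.19 over all genes. Osteoclast markers summed to 99.5 in the ilium and 35.0 in the femur, but only to 35.7 in the maxilla and 43.8 in the mandible. Cartilage markers summed to 37.4 and 5.51 in the ilium and femur, and to 9.95 and 13 in the maxilla and mandible. Egr1 stood at 1.30 and 0.82 in those jaw bones. Osteoblast and osteocyte markers summed to 331 in the ilium and 278 in the femur, against 415 in the maxilla and 437 in the mandible. The part of these cell types in the Egr1 level was not tested.

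Over the 4 bones, the range reached 1 on the log2 scale (2-fold) for 7 of 9 genes, beside 54.2% of all genes tested, with a median range of 1.24, beside 1.10. Likeness between genes was measured as the root mean square difference of their levels over the 4 bones, each centred on the gene's own mean. Among the 36 pairs, Fos and Junb were nearest (0.07), followed by Fosb and Zfp36 (0.17), and Jun and Zfp36 were farthest apart (1.30). Of 18395 other genes well above background in all bones, 6 lay nearer to Fos than Junb did, whereas 1153 lay nearer to Fosb than Zfp36 did. The gene nearest to the mean of the 9 was Adam2 (0.024), followed by Naprt (0.027), and none of the 8 nearest was in a list used here. The nearest to Jun were Fbxw9 (0.033), Sema3f (0.033) and Lingo1 (0.038), and the nearest to Egr1 was Spp1 (0.035), which encodes the bone matrix protein osteopontin. With 4 arrays many genes share any such order, so these names are a description.

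Related gene lists were read from the same limma fit, 140 genes in 10 lists, of which 3 were called higher in the jaw and 11 lower, beside 4.51% and 7.25% of all genes tested. Against those shares the counts are not a result about the lists, and the named genes below are descriptions of single genes. These calls depended on the bones used, with 17 higher and 23 lower without the maxilla, 24 and 25 without the mandible, and 0 in either direction without the ilium or without the femur. Among 36 other immediate early genes, 2 were called higher and 4 lower, also beside 4.51% and 7.25% of all genes, with a median of 0.06. Plk2, a kinase gene, stood at -0.58 in the maxilla and -0.75 in the mandible, against -2.34 in the ilium and -2.59 in the femur (1.80 ± 0.22, limma adjusted p = 0.0337), and Arc, known from synapses, differed by 1.54 ± 0.19 (adjusted p = 0.034). The kinase gene Pim1 stood at -2.43 and -2.58 in the maxilla and mandible, against -0.59 and -0.01 in the ilium and femur (-2.21 ± 0.29, adjusted p = 0.0346). Npas4, a neuronal activity factor, and Gadd45a, a DNA damage response gene, were lower by limma too, with differences of -2.01 and -1.83 (adjusted p = 0.0379 and 0.0427), and Btg2 was the remaining gene called lower.

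Among close relatives of the 9 genes, 1 of 14 AP-1 partners was lower and 0 higher (median -0.07). For this and the next 2 lists, the shares of all genes were 7.25% lower and 4.51% higher. That gene was Mafg, a small Maf factor, at -1.45 ± 0.22 (limma adjusted p = 0.0413). Of 6 EGR and NR4A family genes, 1 was higher and 0 lower (median 0.95): Nr4a2, an orphan nuclear receptor gene, stood at 1.26 in the maxilla and 0.84 in the mandible, against -0.56 in the ilium and -0.92 in the femur (1.79 ± 0.28, limma adjusted p = 0.0419). Of 14 MAP kinase phosphatase and feedback genes, 0 were higher and 1 lower (median 0.23): Dusp2, a phosphatase of blood cells, at -1.80 ± 0.30 (limma adjusted p = 0.0461).

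A further list held Zfp36 relatives, other genes for proteins that bind AU-rich mRNA (Elavl1, Khsrp and Hnrnpd), and genes known for AU-rich mRNAs, most of them cytokines. Of its 13 genes tested, 0 were called higher and 2 lower, beside 4.51% and 7.25% of all genes, with a median of -1.02. The interleukin gene Il6 was lower by at least 3.61-fold, since neither the maxilla nor the mandible gave a signal well above background (limma adjusted p = 0.0363), and the chemokine gene Ccl3 differed by -1.93 ± 0.29 (limma adjusted p = 0.0398). The members not called ran from -2.03 for the cytokine gene Il1b to 0.78 for the relative Zfp36l1, with Ccl2 at 0.51, Il10 at 0.02 and Vegfa at -0.05. Neutrophil markers were below both trunk and limb bones in both jaw bones for 8 of 10, and macrophage markers for 8 of 8, beside 36.3% of all genes. Limma called 6 of 10 neutrophil and 1 of 8 macrophage markers lower. Macrophage markers summed to 12.1 in the maxilla and 14.4 in the mandible, against 22.6 in the ilium and 22.2 in the femur. The part of either cell type in the levels of Zfp36, Fosb and the cytokines was not tested.

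Of 18 upstream regulators, 1 was lower and 0 higher (median -0.34), the MAP kinase effector Rps6ka1 (-2.06 ± 0.19, limma adjusted p = 0.0325). For this and the following lists, limma called 7.25% of all genes lower and 4.51% higher. The serum response factor gene Srf stood at 1.17 in the maxilla and 1.37 in the mandible, against 1.70 in the ilium and 1.89 in the femur, and was not called (adjusted p = 0.184). Of 9 NF-kB response genes, 1 was lower and 0 higher (median -0.48), the inhibitor gene Nfkbie (-1.37 ± 0.21, limma adjusted p = 0.0402). Of 10 genes of the integrated stress response, which includes the Atf3 regulator Atf4, 1 was lower and 0 higher (median 0.36): Ppp1r15a, a phosphatase subunit gene, at -2.10 ± 0.31 (limma adjusted p = 0.0402). Heat shock genes had 0 of 9 called in either direction by limma, with 1 at an unadjusted p under 0.05 (median -0.06). The largest difference among them was that of the chaperone gene Dnajb1, -0.91 ± 0.24 (limma adjusted p = 0.0887). Hypoxia genes also had 0 of 11 called by limma, with 3 at an unadjusted p under 0.05 (2 higher and 1 lower). Of all genes tested, 15.7% were higher and 18.7% lower at that unadjusted p, so neither count is a result about its list. The largest difference among hypoxia genes was that of Egln3, an oxygen sensor gene, 1.54 ± 0.32 (limma adjusted p = 0.0614).

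**Figure D5:**
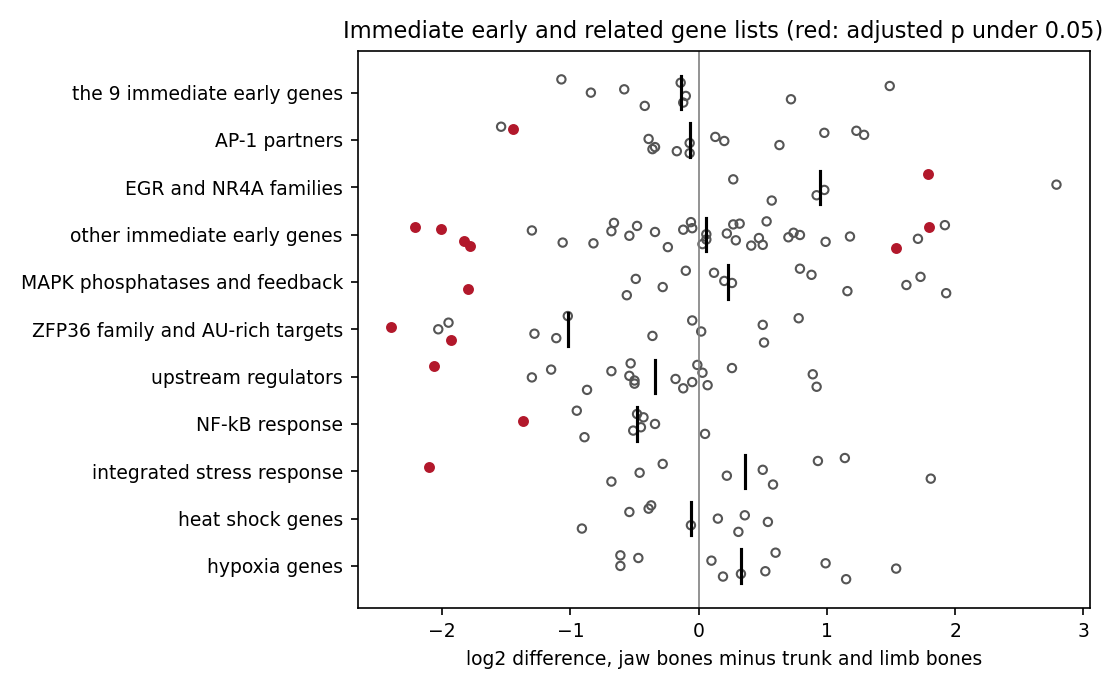
Log2 difference between jaw and trunk and limb bones for the 9 immediate early genes and 10 related gene lists, 1 point per gene tested, with the median of each list as a bar and genes past the limma threshold in red. No point of the 9 genes is red, and the list of Zfp36 relatives and AU-rich targets has the lowest median, -1.02.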

How the data were processed

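RNA of 4 bones was measured on 1 Agilent whole mouse genome array each. Per the file headers and the submitters' processing notes, the deposited intensity values were extracted with Agilent Feature Extraction 9.5.3.1, background-subtracted and detrended by the authors' run of that program. The deposited series table holds log2 values relative to the ilium, made with GeneSpring per the series description, and served as an alternative.

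The log2 processed signal, less the 75th percentile of log2 signal on that array, was averaged over spots with no outlier flag, and the brightest probe stood for a gene. A probe was well above background on an array when at least 0.5 of its spots were. Of 41174 probes, 24375 were named by accession, 6301 by symbol and 2426 by an older symbol through the RefSeq table of GRCm38.p6, and 8072 kept the name in the file. Genes passing this on at least 2 arrays (20616) were fitted with limma 3.58.1 in R 4.3.3 (residual degrees of freedom 2, prior SD 0.275), after the script was tested on simulated data. Promoter windows come from RefSeq. Probes are placed by mm8 coordinates from the array files.

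The number of arrays limits the precision. All lay on 1 slide, so bone and position on the slide cannot be told apart. For a class in which no array gave a signal well above background, the fold is a bound against the lowest signal well above background. Genes named from a list are those past the threshold, at most 3 in each direction by size, or the largest difference where none passed; Il1b, Zfp36l1, Ccl2, Il10, Vegfa, Elavl1, Khsrp, Hnrnpd, Srf and Btg2 were named after their values were seen. The members, lists and tests were chosen with earlier results of these data known. Alternatives are median centring, quantile normalization, normexp background (offset 50), the series table, other rules for outlying spots, the mean over probes, other background filters, a trended robust variance and leaving out each bone.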

Additional observations from a re-analysis of the deposited data

How the results depend on the processing

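Over 14 alternatives, 113 of 125 recomputed member differences kept their sign and side of the threshold, 7 changed sign and 5 passed it. The 5 were Jun without either jaw bone and Atf3, Ier2 and Zfp36 without the maxilla. With 1 bone left out, limma called 0 to 1 members higher and 0 to 3 lower (0 to 1 and 0 to 6 at an unadjusted p under 0.05). In the same runs Fos ran from -0.72 to 0.52, Junb from -0.67 to 0.39, Atf3 from -1.18 to 0.35 and Dusp1 from -0.36 to 0.12. Each of these 4 turned positive without the mandible, and Dusp1 also without the femur (0.02). Junb turned to 0.03 under quantile normalization, and Ier2 to 0.20 with the mean over its disagreeing probes. Leaving out probes with any outlying spot removed Jun by construction, so the counts of 1 for Jun became 0 (unadjusted p, no overlap, gap of 1). That gap count was also 0 under median centring, quantile normalization and the series table, while 1 gene, Zfp36, lay below by 1 under median centring and the series table. Those 2 settings left 1 gene 2-fold higher in the maxilla than the mandible, and normexp left 1 gene lower at an unadjusted p under 0.05.

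Calls over the whole array numbered 929 higher and 1494 lower in limma (38.3% higher). The higher count was 603 under median centring (26.8% higher), 600 under quantile normalization, 574 with the series table (27.2% higher) and 396 with no filter, which also gave 724 lower. Leaving out a bone gave 0 to 4045 higher and 0 to 4159 lower, with 0 without the ilium or the femur (3550 and 2628 genes at an unadjusted p under 0.05). Median centring moved the median difference of all genes from -0.03 to -0.28. Related lists had 7 genes higher with a trended robust variance, 1 lower with no filter, and 0 to 24 higher and 0 to 25 lower with a bone left out. The causes were not tested. No paired analysis was possible because each bone had 1 array. With 1 array per bone, differences near 0.20 on the log2 scale lie within the error worked out from the extraction program, and the dimmer Zfp36 probe lies nearest to background in all 4 bones.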
